A study of Mus musculus with 6 samples.

Results

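Sirtuins are deacylases that use up NAD as a co-substrate, and the genes described here are those of the sirtuins and of the enzymes that make NAD or compete for it. The list names 10 genes, and a gene was taken in where the platform annotation gives its symbol alone to at least 1 probe set. This held for 7 genes with 11 probe sets, out of 12393 named genes and 22626 probe sets tested: Sirt1, Sirt2, Sirt3, Sirt7, Nampt, Nmnat1 and Parp1. Sirt5, Sirt6 and Cd38 had no probe set with their symbol in the annotation used, and were not analysed here. Taking a gene in from the list used no measured value, but the list itself was chosen with earlier results of these data known.

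The arrays measured CD4+CD25+ T cells of HDAC9-/- mice and the same fraction of wild type mice, with 3 samples in each and 1 array per sample. Both groups are labelled C57BL/6, with no treatment named. The fraction was enriched with magnets for regulatory T cells (Treg), suppressors of immune responses whose identity rests on the factor Foxp3. HDAC9 is a histone deacetylase of class IIa, a zinc enzyme that does not use NAD. The labels do not say which exons were deleted, how old the mice were, whether mice were pooled or whether other cells of the mice also lacked HDAC9. The submitters call the samples independent but do not say that each came from its own mouse, so a p-value here measures spread between samples only, and that spread may be technical.

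Sirtuins differ by place in the cell. Sirt1, Sirt6 and Sirt7 are mainly nuclear, Sirt2 is mainly cytosolic, and Sirt3, Sirt4 and Sirt5 are mitochondrial. NAD in T cells comes largely from nicotinamide, which Nampt turns into nicotinamide mononucleotide and the Nmnat enzymes into NAD. Parp1, which builds ADP-ribose chains at DNA breaks, and the surface enzyme Cd38 consume NAD and release nicotinamide. In mouse Treg, Sirt1 is known to remove acetyl groups from Foxp3, which shortens the life of the protein, and Sirt1 is 1 of the enzymes named in the series title.

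Of 8 measured Treg and CD4 T cell markers, 7 lay above the median of all probe sets (5.76) and 1, Ikzf2, below it. Foxp3 averaged 10.37 in HDAC9-/- and 10.34 in wild type samples (log2). Il2ra was lower on every HDAC9-/- array, at 9.42, 9.34 and 9.42, against 9.45, 9.46 and 9.54 in wild type samples (limma, adjusted p = 0.712). Of the 8 markers 3 had a positive difference. The summed level of these markers, given here and below as the log2 of summed unlogged values, ran from 13.86 to 13.95 in HDAC9-/- samples. In wild type samples it ran from 13.89 to 13.95. The 1 probe set of Hdac9 was dim, a word used here for a mean below that median, at 3.74, 3.62 and 3.66 in HDAC9-/- and 3.50, 3.74 and 4.10 in wild type samples, and its place relative to the deletion is unknown, so it does not check the labels. Wild type replicate 3 stood apart, with the lowest array median (5.69, against 5.77 to 5.81 on the other arrays) and the lowest mean correlation with the other arrays (0.991). Markers of other cell types were measured too. The summed level of 15 measured myeloid markers ran from 13.55 to 13.80 in HDAC9-/- and from 12.45 to 13.23 in wild type samples, and all 15 markers had a positive difference. The summed level of 6 plasma cell markers ran from 12.28 to 12.41 in HDAC9-/- and from 12.68 to 12.72 in wild type samples. Of these 6 markers 1 had a positive difference, and Jchain was the brightest (means 11.52 in HDAC9-/- and 11.99 in wild type samples). The 3-prime minus 5-prime gap of the Gapdh control probes (log2), which widens as RNA degrades, was 0.15 to 0.28 in HDAC9-/- and 0.026 to 0.11 in wild type samples, while that of the actin control probes overlapped (0.42 to 0.60 in HDAC9-/- and 0.33 to 0.46 in wild type samples). The sum of 11 CD8 T and NK cell markers, 8 of them with a positive difference, overlapped too (12.78 to 12.92 in HDAC9-/- and 12.48 to 12.87 in wild type samples), as did that of 8 B cell markers (13.58 to 13.78 in HDAC9-/- and 13.77 to 14.02 in wild type samples). The B cell sum was set mainly by Ighm (means 13.56 in HDAC9-/- and 13.78 in wild type samples). Of the 8 B cell markers 5 had a positive difference. Myeloid, plasma cell and Gapdh values thus did not overlap between genotypes, and their part in the results that follow was not tested. In such bulk samples, fewer cells of a type and less RNA per cell cannot be told apart.

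No sirtuin or NAD enzyme of the list passed the test between genotypes. Sirt3 had a higher value on every HDAC9-/- array than on any wild type array, and Sirt7 a lower one; Sirt1, Sirt2, Nampt, Nmnat1 and Parp1 overlapped. The fitted changes ran from 0.908-fold for Sirt7 to 1.13-fold for Sirt3. Of the 11 probe sets 0 passed at an adjusted p below 0.05 (limma, Benjamini-Hochberg over all probe sets), against 3 of 22626 over the array, which is 0.0133%. By the looser measure of groups that do not overlap, the list had 1 higher and 1 lower probe set, or 18.2%. Over the array this share was 17.0%, made up of 11.0% higher and 6.04% lower, so the list lay near the background. At an unadjusted limma p below 0.05 the list had 1 probe set, the one of Sirt3, while the array had 8.78% (5.55% higher and 3.23% lower). Differences were positive for 7 of the 11 probe sets and for 52.2% of the array. Their median was 0.0048, with a range of -0.011 to 0.031 leaving out each array, against 0.0078 over the array, and the median absolute difference was 0.076, against 0.092.

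**Figure D1:**
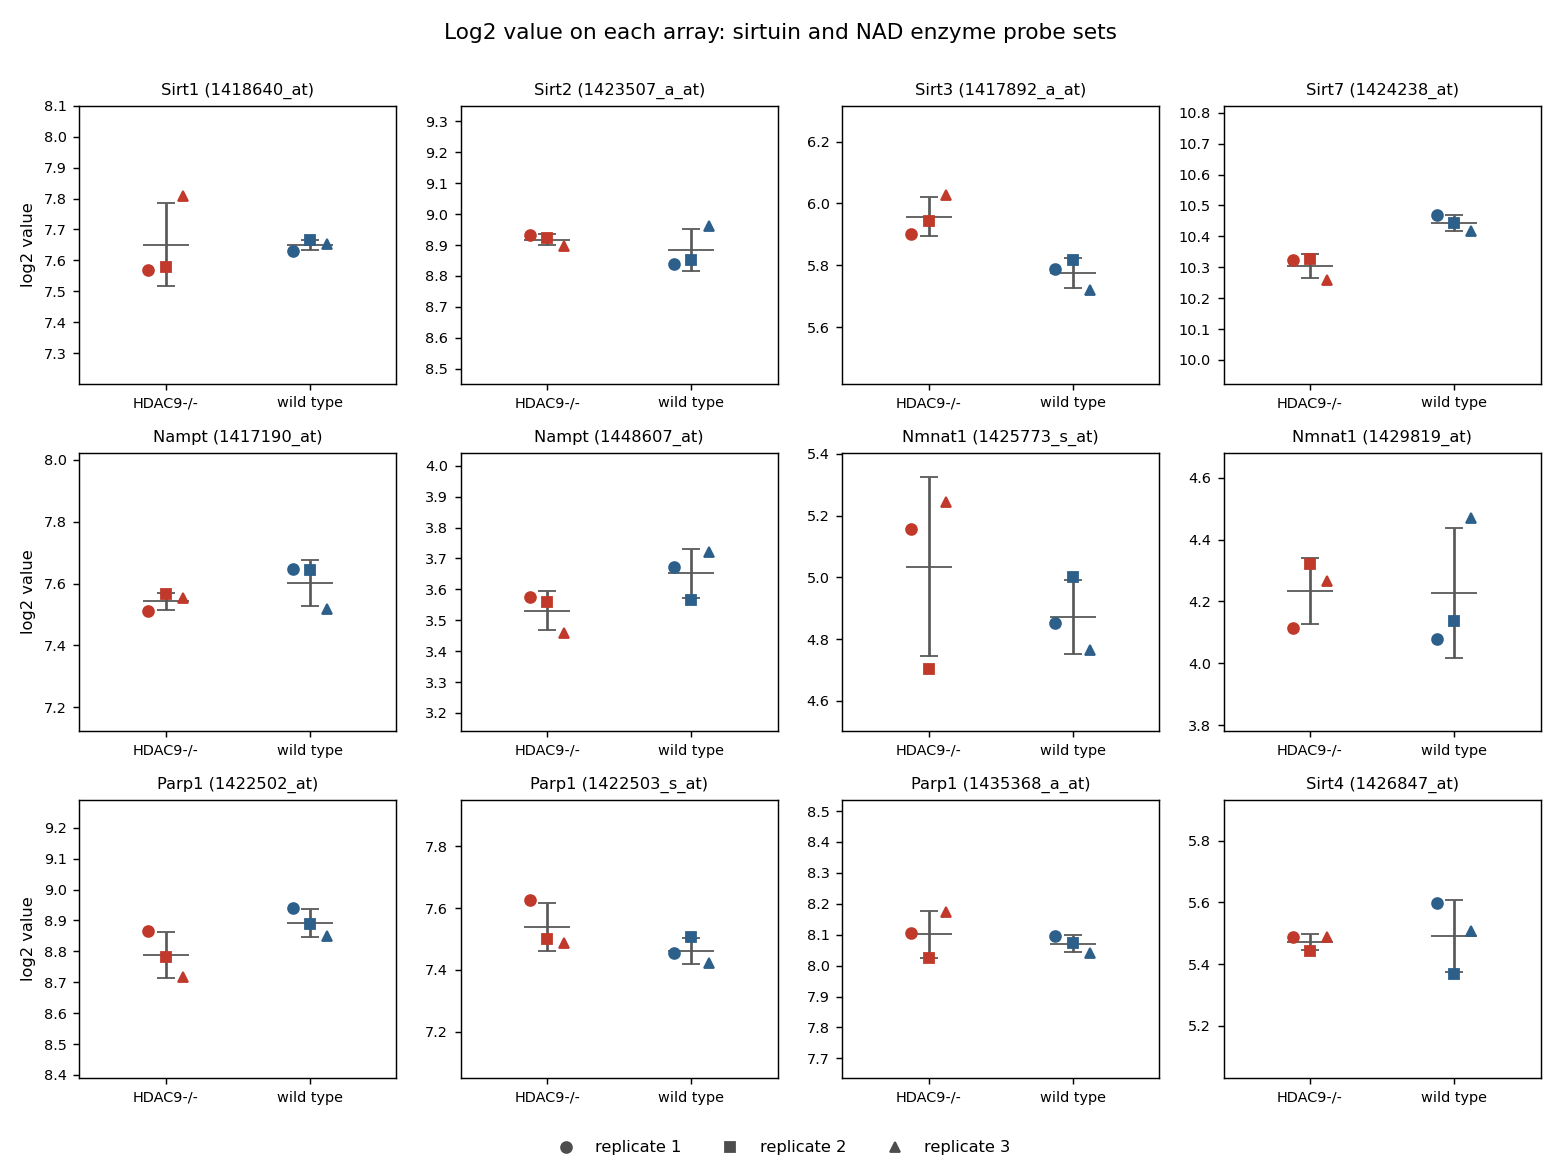
Log2 value on each array for the 11 probe sets of Sirt1, Sirt2, Sirt3, Sirt7, Nampt, Nmnat1 and Parp1, and for the probe set of Sirt4, which is not on the list. Points are arrays, shaped by replicate number; bars are the mean and SD of 3 HDAC9-/- (left) and 3 wild type arrays (right), and each panel has its own axis that does not start at 0. Only in the panels of Sirt3 and Sirt7 do the groups not overlap.

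Of the nuclear sirtuins, Sirt1 had means that were equal to 2 decimals in both genotypes. Its probe set (1418640_at) read 7.57, 7.58 and 7.81 in HDAC9-/- replicates 1 to 3, against 7.63, 7.67 and 7.65 in wild type replicates 1 to 3 (log2). The HDAC9-/- values lay on both sides of a narrow wild type range: 2 were below it and replicate 3 was above it. The means were 7.65 ± 0.13 in HDAC9-/- and 7.65 ± 0.02 in wild type samples (SD, n = 3 each), which differed by 0.0019 (standard error, SE, 0.084, limma, adjusted p = 0.994). The 95% confidence interval, unadjusted for the number of probe sets, ran from 0.871-fold to 1.15-fold. The difference was -0.076 without HDAC9-/- replicate 3, and its sign also turned when array medians were aligned (-0.024).

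Sirt7, a nuclear and nucleolar sirtuin that acts on histone H3 and on ribosomal RNA transcription, read 10.32, 10.33 and 10.26 in HDAC9-/- samples, against 10.47, 10.44 and 10.42 in wild type samples (probe set 1424238_at). All HDAC9-/- arrays were below all wild type arrays, with a gap that was small on the log2 scale. The difference was -0.14 (SE 0.063, limma, adjusted p = 0.584), or 0.908-fold, with an interval from 0.819-fold to 1.01-fold. It kept its sign in each alternative tried, between -0.12 and -0.16, and the adjusted p stayed between 0.282 and 0.815.

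Sirt2, the cytosolic deacetylase first known for acting on tubulin, read 8.93, 8.92 and 8.90 in HDAC9-/- samples, against 8.84, 8.85 and 8.96 in wild type samples (probe set 1423507_a_at). The groups overlapped through wild type replicate 3, the highest of the 6 arrays. The difference was 0.034 (SE 0.067, limma, adjusted p = 0.880). Leaving out a wild type array moved it to 0.011 (replicate 1), 0.018 (replicate 2) or 0.072 (replicate 3), and it was 0.0081 with array medians aligned. The interval ran from 0.917-fold to 1.14-fold.

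Sirt3, the main deacetylase of the mitochondrial matrix, had the largest difference of the list. Its probe set (1417892_a_at) read 5.90, 5.94 and 6.03 in HDAC9-/- samples, against 5.79, 5.82 and 5.72 in wild type samples. All HDAC9-/- arrays were above all wild type arrays. The means were 5.96 ± 0.06 in HDAC9-/- and 5.78 ± 0.05 in wild type samples (SD, n = 3 each), both close to the median of all probe sets (5.76). The difference was 0.18 (SE 0.069, limma, adjusted p = 0.549), or 1.13-fold, with an interval from 1.01-fold to 1.27-fold. It lay between 0.15 and 0.21 in each alternative tried, and the adjusted p between 0.258 and 0.810. Sirt4, a mitochondrial sirtuin outside the list, read 5.49, 5.44 and 5.49 in HDAC9-/- samples, against 5.60, 5.37 and 5.51 in wild type samples, and its groups overlapped (difference -0.019).

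A start of Sirt3 is shown because the gene had the largest difference of the list and shares this start region with another gene. That of Sirt1 is shown because it holds the most motif matches. RefSeq promoter windows, from 250 bases before to 50 bases after a start, were found for all 7 genes (9 windows, mouse build GRCm38.p6). The Sirt3 window shown lies on the minus strand at chr7:140882260-140882559. It also holds the start of Psmd13, a subunit of the proteasome lid, which runs the other way, and the capitals mark the 84 bases between both starts. Another Sirt3 window, chr7:140881820-140882119, is not shown, and its start lies 525 bases from that of Psmd13. Which Sirt3 start the measured transcripts used was not tested. The Sirt1 window lies on the minus strand at chr10:63338986-63339285, and its capitals mark GC boxes and E-boxes.
Sirt3: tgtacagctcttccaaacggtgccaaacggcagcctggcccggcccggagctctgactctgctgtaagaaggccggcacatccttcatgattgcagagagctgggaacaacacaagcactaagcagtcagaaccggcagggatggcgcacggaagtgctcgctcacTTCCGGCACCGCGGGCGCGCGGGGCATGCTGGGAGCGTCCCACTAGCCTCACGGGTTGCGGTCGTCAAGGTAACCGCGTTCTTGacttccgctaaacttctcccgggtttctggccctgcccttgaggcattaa
Sirt1: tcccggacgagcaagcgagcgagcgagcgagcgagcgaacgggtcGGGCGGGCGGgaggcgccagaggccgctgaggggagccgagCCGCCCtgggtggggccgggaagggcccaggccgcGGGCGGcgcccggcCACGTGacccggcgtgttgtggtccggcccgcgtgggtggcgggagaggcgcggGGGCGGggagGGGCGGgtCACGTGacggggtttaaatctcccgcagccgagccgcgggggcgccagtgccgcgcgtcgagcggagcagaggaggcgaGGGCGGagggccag

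Psmd13 read 8.83, 8.72 and 8.64 in HDAC9-/- samples, against 8.67, 8.60 and 8.48 in wild type samples (probe set 1422459_a_at). Its difference of 0.14 had the sign of that of Sirt3, but 1 HDAC9-/- array lay within the wild type range and the gene did not pass (limma, adjusted p = 0.636). Both strands of the windows were searched for the motif of MEF2, a factor that class IIa deacetylases bind, for the forkhead motif TGTTTAC, for the E-box CACGTG and for the GC box GGGCGG, with overlapping matches counted. The MEF2 motif was in 0 of the 9 windows, against 3.19% of 32851 mouse windows of the same length, and the forkhead motif in 0, against 3.65%. The E-box was in the windows of Sirt1 and Parp1, against 7.15% of all windows. The GC box was in 8 of the 9, all but the Sirt3 window shown, against 35.7% of all windows. The Nmnat1 windows overlap and share their GC box. The 9 windows ran from 50% G and C letters and 16 CpG pairs (Sirt2) to 79% and 47 (Sirt1). The medians of all windows were 52.7% and 7, and the part of this makeup in the GC box share was not tested. A match here is a run of letters, not a bound site.

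Nampt, the rate-limiting enzyme of NAD salvage, had 2 probe sets, and both had lower means in HDAC9-/- samples with overlapping groups. The brighter one (1417190_at) read 7.51, 7.57 and 7.55 in HDAC9-/- samples, against 7.65, 7.64 and 7.52 in wild type samples. Wild type replicates 1 and 2 were above all other arrays, and wild type replicate 3 lay among the HDAC9-/- arrays. The difference was -0.060 (SE 0.069, limma, adjusted p = 0.797), and the interval ran from 0.856-fold to 1.07-fold. Leaving out a wild type array moved it to -0.038 (replicate 1), -0.039 (replicate 2) or -0.10 (replicate 3). The dim probe set (1448607_at) read 3.58, 3.56 and 3.46 in HDAC9-/- samples, against 3.67, 3.56 and 3.72 in wild type samples, a difference of -0.12 (limma, adjusted p = 0.651). Neutrophils and macrophages also express Nampt. The myeloid sum was higher in HDAC9-/- samples (13.55 to 13.80, against 12.45 to 13.23), and a myeloid part in the Nampt values was not tested.

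Nampt is also the 1 gene of the list on the chromosome of Hdac9. Between them lie 7 protein-coding genes of the GRCm38.p6 gene table, and 4 of these have a probe set of their own. Sypl, a synaptophysin-like vesicle protein gene next to Nampt, differed by 0.082. Atxn7l1, an ataxin-7-like gene, differed by -0.13, and the bHLH factor genes Twist1 and Ferd3l by 0.13 and -0.071. None passed (adjusted p 0.712 to 0.855), and all had overlapping groups. Ccdc71l, the gene on the other side of Nampt, read 7.04, 6.90 and 7.07 in HDAC9-/- samples, against 7.30, 7.60 and 7.04 in wild type samples. Its difference of -0.31 did not pass (limma, adjusted p = 0.595).

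Nmnat1, the nuclear enzyme that completes NAD, was measured by 2 dim probe sets, and both had overlapping groups. The first (1425773_s_at) read 5.15, 4.70 and 5.24 in HDAC9-/- samples, against 4.85, 5.0 and 4.76 in wild type samples. Its HDAC9-/- arrays held both the highest and the lowest values. The difference was 0.16 (SE 0.15, limma, adjusted p = 0.755), the widest error of the list, and ran from 0.058 without HDAC9-/- replicate 3 to 0.33 without HDAC9-/- replicate 2. The second (1429819_at) read 4.12, 4.32 and 4.27 in HDAC9-/- samples, against 4.08, 4.14 and 4.47 in wild type samples, a difference of 0.0048 whose sign turned to -0.070 without wild type replicate 1. A name ending in s_at marks probes that can match transcripts of more than 1 gene, so the first probe set may not be specific. The same limit holds for each such name below.

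Parp1, the main NAD consumer of the nucleus when DNA is damaged, had 3 bright probe sets that did not share a sign. Probe set 1422502_at read 8.86, 8.78 and 8.72 in HDAC9-/- samples, against 8.94, 8.89 and 8.85 in wild type samples. Its lowest values came from HDAC9-/- replicates 2 and 3, while replicate 1 lay within the wild type range (difference -0.10, limma, adjusted p = 0.673). Probe set 1422503_s_at read 7.63, 7.50 and 7.49 in HDAC9-/- samples, against 7.46, 7.51 and 7.42 in wild type samples. There HDAC9-/- replicate 1 was the highest of all arrays (difference 0.076, adjusted p = 0.755), and without it the difference was 0.032. Probe set 1435368_a_at read 8.11, 8.02 and 8.17 in HDAC9-/- samples, against 8.10, 8.07 and 8.04 in wild type samples (difference 0.031, adjusted p = 0.896). Its HDAC9-/- arrays spanned the whole wild type range, and the difference was -0.0062 without HDAC9-/- replicate 3. The 3 intervals together ran from 0.828-fold to 1.18-fold.

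**Figure D2:**
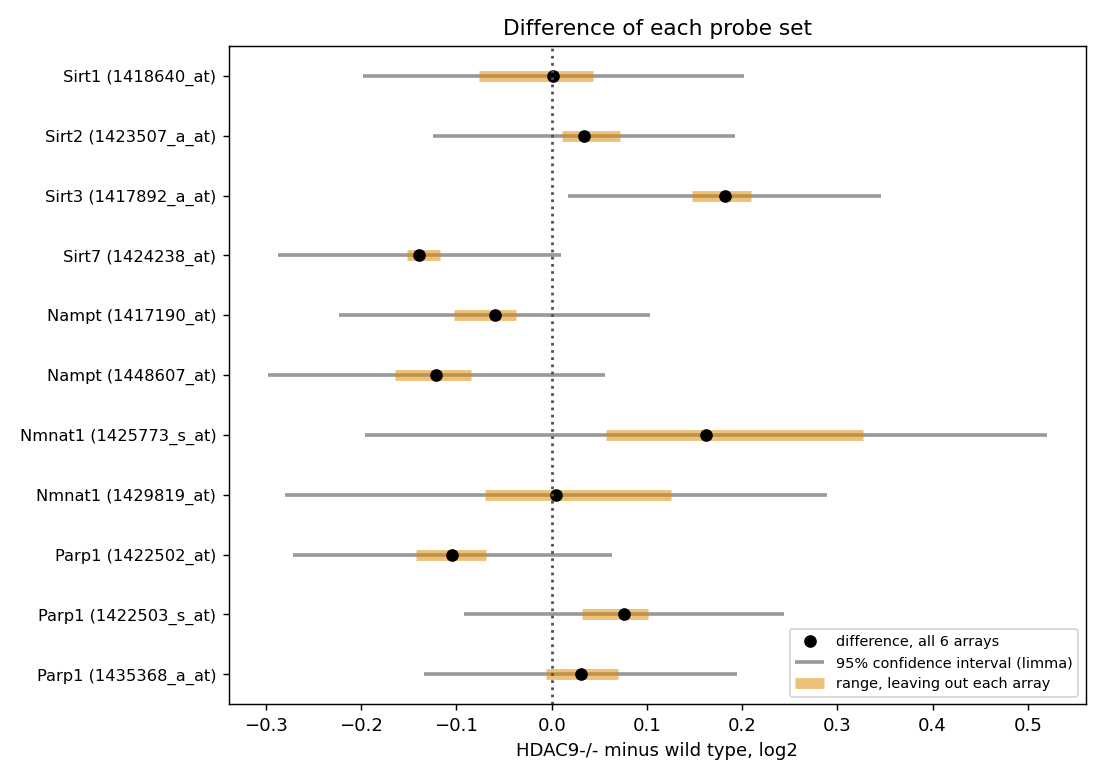
Difference between HDAC9-/- and wild type samples (log2, HDAC9-/- minus wild type) of the 11 probe sets, with the 95% confidence interval from limma (grey) and the range when each array is left out in turn (orange). The interval of Sirt3 starts just above 0, that of Sirt7 ends just above 0, and the probe set 1425773_s_at of Nmnat1 has the widest one.

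The other measured genes of NAD metabolism and of sirtuin partners, 81 genes with 133 probe sets, had 0 calls, with 72 positive and 61 negative differences and a median of 0.014. Their genotypes did not overlap for 17.3%, against 17.0% over the array. At an unadjusted limma p below 0.05 they had 12 of the 133 probe sets, 7 higher and 5 lower, where the array had 8.78%, with 5.55% higher and 3.23% lower.

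Genes of NAD synthesis and salvage had 13 positive and 6 negative differences over 19 probe sets, where 52.2% of the array was positive, and a median of 0.093. The genotypes did not overlap for 5 of these probe sets, or 26.3%, all higher in HDAC9-/- samples, against 17.0% over the array, of which 11.0% were higher. This share was 27.3%, all higher, for ADP-ribose removal and nicotinamide clearance, and 16.7% for glycohydrolases and ADP-ribosyltransferases. It was 7.69% for NAD phosphorylation and redox and 17.3% for sirtuin regulators, partners and substrates. Nmrk1, which phosphorylates nicotinamide riboside, read 3.50, 3.47 and 3.46 in HDAC9-/- samples, against 3.32, 3.23 and 2.90 in wild type samples (difference 0.32, limma, adjusted p = 0.541), and its other probe set differed by -0.012. Kmo, a hydroxylase of the route from tryptophan to NAD, read 4.73, 4.45 and 4.37 in HDAC9-/- samples, against 4.21, 4.30 and 3.92 in wild type samples (difference 0.38, adjusted p = 0.541). Both genes were dim. Kmo is also expressed by myeloid cells, whose marker sum was higher in HDAC9-/- samples, and a myeloid part in its values was not tested. Qprt, which turns quinolinate into an NAD precursor, was bright enough to lie above the array median. It read 7.14, 7.21 and 7.24 in HDAC9-/- samples, against 7.04, 6.99 and 7.04 in wild type samples (difference 0.17, adjusted p = 0.549), and its second probe set differed by 0.078. Slc25a51, the carrier that brings NAD into mitochondria, was picked after its values were seen. Its 3 probe sets differed by 0.25, 0.23 and 0.10, the first and last without overlap, so the 5 probe sets above are not all of different genes. The first read 7.03, 6.72 and 6.83 in HDAC9-/- samples, against 6.68, 6.65 and 6.48 in wild type samples (adjusted p = 0.557). The median of the list was 0.16 with dim probe sets left out and 0.064 without HDAC9-/- replicate 1.

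Glycohydrolases and ADP-ribosyltransferases, the NAD consumers beside Parp1, were split evenly, with 12 positive and 12 negative differences. Their median was 0.0015, and it was -0.024 with array medians aligned, -0.020 with dim probe sets left out and -0.031 without wild type replicate 3. It moved the other way, to 0.022, without wild type replicate 1 and to 0.018 without HDAC9-/- replicate 2. Tiparp, an ADP-ribosyltransferase that the aryl hydrocarbon receptor induces, had the smallest p of all these lists. It read 7.89, 7.74 and 7.94 in HDAC9-/- samples, against 7.44, 7.57 and 7.46 in wild type samples (probe set 1426721_s_at). By the ending of its name this probe set may not be specific. The difference was 0.37 with a standard error of 0.081, or 1.29-fold, and did not pass (limma, adjusted p = 0.398). Its other probe sets, 1452160_at and 1452161_at, differed by 0.22 and 0.11 with overlapping groups. Bst1, a surface relative of Cd38, was dim, at 3.38, 3.33 and 3.10 in HDAC9-/- samples, against 2.97, 3.07 and 2.93 in wild type samples (difference 0.28, adjusted p = 0.520). Its other probe set, 1449453_at, read 3.57, 3.70 and 3.61 in HDAC9-/- samples, against 3.51, 3.42 and 3.50 in wild type samples, also without overlap (difference 0.15, adjusted p = 0.589). Bst1 is also expressed by myeloid cells. Parp14, an interferon-inducible ADP-ribosyltransferase, read 8.77, 8.65 and 8.71 in HDAC9-/- samples, against 9.05, 8.82 and 8.91 in wild type samples (difference -0.22, adjusted p = 0.549).

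Genes of NAD phosphorylation and redox exchange had 11 positive and 15 negative differences. Their median of -0.022 turned to 0.034 with 1 probe set per gene and to 0.0088 without HDAC9-/- replicate 3. Ldha, the lactate dehydrogenase subunit that regenerates NAD in glycolysis, read 11.92, 11.86 and 11.86 in HDAC9-/- samples, against 11.77, 11.78 and 11.69 in wild type samples (difference 0.13, limma, adjusted p = 0.605). Got2, a transaminase of the malate-aspartate shuttle, differed by 0.12 in 1 probe set and by -0.068 in the other. Nnt, the transhydrogenase that makes NADPH in mitochondria, was spread widely among the wild type arrays. Its probe set 1416105_at read 7.53, 7.60 and 7.58 in HDAC9-/- samples, against 8.44, 7.51 and 7.98 in wild type samples. The HDAC9-/- arrays lay close together (SD 0.04), while the wild type arrays were spread (SD 0.46). Probe set 1456573_x_at had the same order among wild type arrays, at 6.75, 7.01 and 7.30 in HDAC9-/- samples, against 7.91, 6.94 and 7.49 in wild type samples. In this probe set the HDAC9-/- arrays were spread too (SD 0.28, against 0.49 in wild type samples). Whether its probes match Nnt alone was not tested. The differences were -0.41 and -0.43, and neither passed (limma, adjusted p 0.612 and 0.640). The C57BL/6J substrain is known to carry a deletion in Nnt; the labels give C57BL/6 without a substrain, and whether samples differed in it was not tested.

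**Figure D3:**
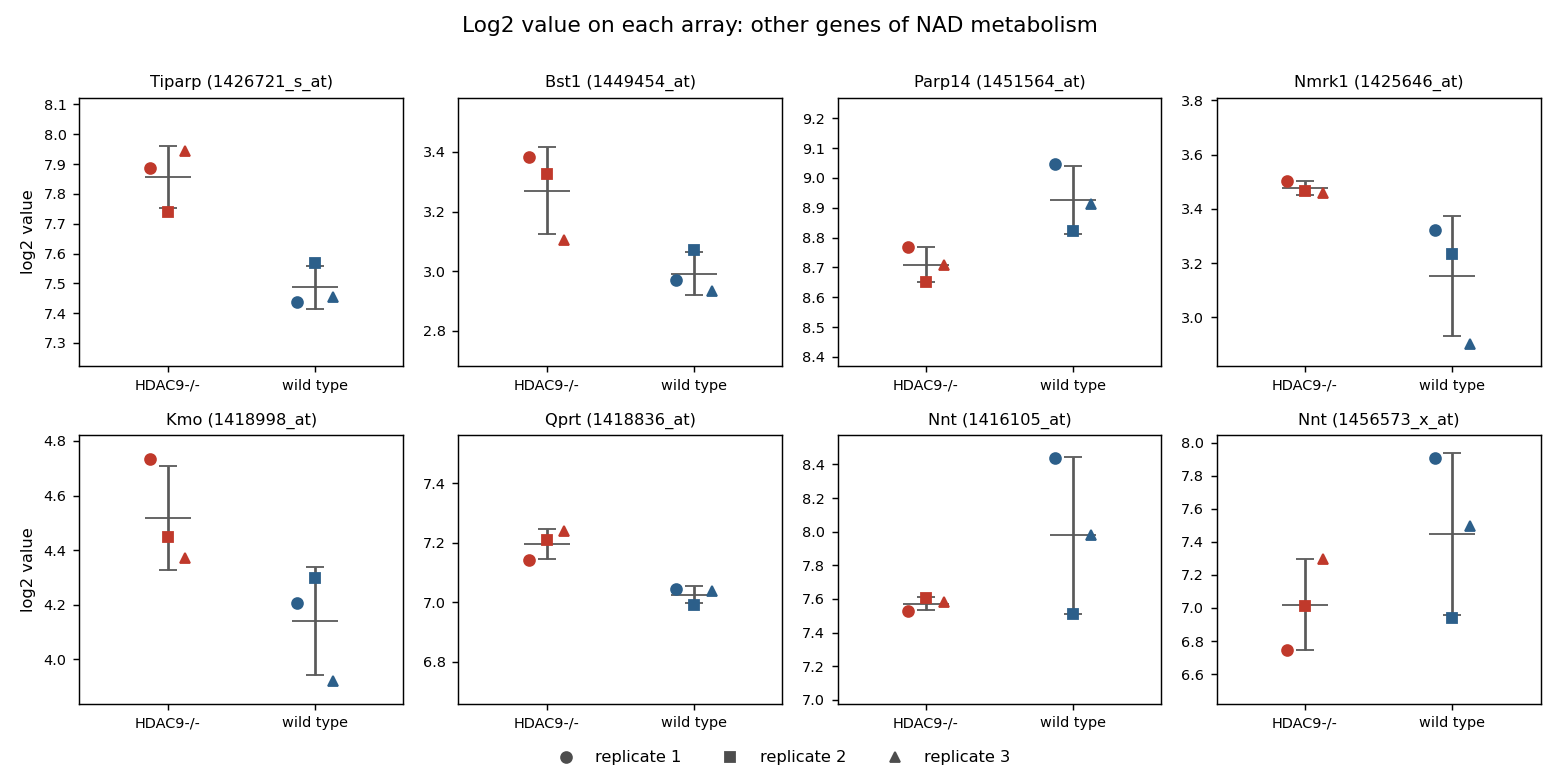
Log2 value on each array of 6 further NAD genes with the smallest p-values of their lists and of both Nnt probe sets; points are arrays, shaped by replicate number, bars are the mean and SD of 3 HDAC9-/- (left) and 3 wild type arrays (right), and axes differ and do not start at 0. Tiparp, Bst1, Nmrk1, Kmo and Qprt are higher and Parp14 lower on all HDAC9-/- arrays, and the wild type arrays of Nnt are spread from 7.51 to 8.44 in the first probe set.

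Genes of ADP-ribose removal and nicotinamide clearance had 7 positive and 4 negative differences and a median of 0.050, which was 0.00034 without HDAC9-/- replicate 2 and 0.015 without wild type replicate 1. It was 0.089 without HDAC9-/- replicate 3, 0.084 without wild type replicate 3 and 0.025 with array medians aligned. Macrod1, which removes ADP-ribose from proteins, read 6.85, 6.84 and 6.98 in HDAC9-/- samples, against 6.76, 6.71 and 6.67 in wild type samples (difference 0.18, limma, adjusted p = 0.557). Nudt5, an ADP-ribose pyrophosphatase, differed by 0.14 in its brighter probe set and by -0.028 in the other, and the dim Macrod2 by 0.28 and 0.050.

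Sirtuin regulators, partners and substrates had 29 positive and 23 negative differences, a median of 0.016 that turned to -0.0099 with array medians aligned, and 0 calls among 28 measured genes. The genes with the smallest p in this list each had at least 1 other probe set with a difference near 0 or of the opposite sign. Ubtf, a factor of ribosomal RNA transcription, read 5.71, 5.92 and 5.95 in HDAC9-/- samples, against 6.28, 6.67 and 6.18 in wild type samples. That probe set differed by -0.51 (limma, adjusted p = 0.442), and the brighter one by -0.027. Kat2b, an acetyltransferase, differed by -0.53 in a dim probe set (adjusted p = 0.549) and by -0.0074 in the brighter one. Foxo1, a forkhead factor deacetylated by Sirt1, read 8.87, 8.68 and 8.71 in HDAC9-/- samples, against 8.94, 8.94 and 8.95 in wild type samples, in probe set 1416982_at (difference -0.19, adjusted p = 0.550). The brightest Foxo1 probe set, 1416981_at, differed by 0.16 the other way, also without overlap. The remaining Foxo1 probe sets, 1416983_s_at and 1456529_at, differed by -0.031 and -0.27 with overlapping groups.

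**Figure D4:**
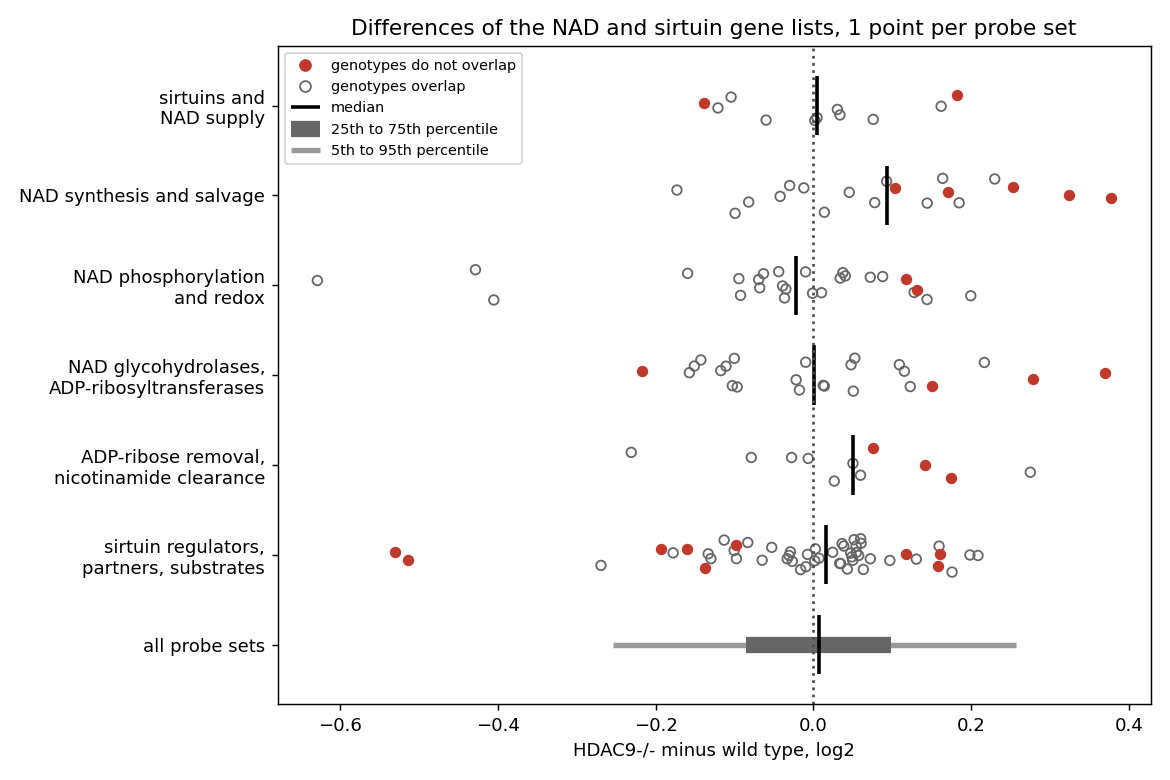
Difference between HDAC9-/- and wild type samples (log2) of each probe set of the sirtuin and NAD supply genes and of 5 lists around them. Filled points are probe sets whose genotypes do not overlap, vertical bars are list medians, and the lowest row gives the median, the middle 50% and the 5th to 95th percentile (-0.25 to 0.26) of all 22626 probe sets.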

How the data were processed

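Affymetrix arrays were run on biotin-labelled RNA of 6 samples, per the labels. The authors deposited log2 expression values per probe set; the submitters' processing notes name RMA, without a version or settings. RMA understates changes of dim probe sets. Of 22690 probe sets, 64 controls were left out and the others tested without a filter. Symbols were updated through the Entrez identifier with the GRCm38.p6 gene table, and a probe set was named only if it carried 1 symbol (20380; 691 had several and 1555 none). Genotypes were compared in R 4.3.3 by limma 3.58.1, with lmFit and eBayes over all 6 arrays and Benjamini-Hochberg adjustment over the whole array. Precision is limited by how few arrays there are. The fit was tested on simulated data. Figures used matplotlib 3.10.9.

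The genes and lists were chosen with earlier results of these data known. All probe sets of the listed genes are named, and of each further list the 3 probe sets with the smallest p and any with an adjusted p below 0.05; other probe sets of those genes, some genes beside a listed gene on its chromosome, and Slc25a51, which was chosen after its values were seen, are named too. Marker sums use the brightest probe set per gene and are the log2 of summed unlogged values, so the brightest genes weigh most. Alternatives were quantile normalization again, aligned medians, a filter on dim probe sets, trended and robust eBayes, array weights, a replicate block, 1 probe set per gene, other thresholds and leaving out each array.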

Additional observations from a re-analysis of the deposited data

How the results depend on the processing

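No alternative fit called a sirtuin or NAD supply probe set, and the lowest adjusted p among 129 alternative values was 0.258 (Sirt3, dim probe sets left out). Looser thresholds gave 1 of these probe sets at an unadjusted p below 0.05 and 2 for groups that do not overlap; for the other NAD and sirtuin partner lists they gave 12 and 23, where the alternative fits gave 0. Of the 129 values 117 kept their sign, and 8 of the 11 probe sets never turned. Sirt1 turned to -0.015 with array weights, -0.024 with aligned array medians and -0.023 after a further quantile normalization, and ran from -0.076 to 0.043 leaving out each array. Nmnat1 1429819_at turned to -0.021 with array medians aligned and ran from -0.070 to 0.13 leaving out each array. Parp1 1435368_a_at was -0.00011 with array weights and ran from -0.0062 to 0.069 leaving out each array. The median of the 11 probe sets was -0.021 with array medians aligned and ran from -0.011 to 0.031 leaving out each array. The cause of these turns was not tested. The filter on dim probe sets gave no value for 1448607_at and both Nmnat1 probe sets.

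Over the whole array the count of 3 became 15 with trended and robust eBayes, 1 with 1 probe set per gene, 6 with array weights, 5 at an adjusted p below 0.10, 1987 at an unadjusted p below 0.05 and 3856 for groups that do not overlap, and ran from 0 to 6 leaving out each array (0 without any one HDAC9-/- array or the first wild type array, 1 without the second wild type array, 6 without the third). With the replicate block it was 0. Deviations of same-numbered samples from their group means had correlations of 0.036, 0.099 and -0.25. Those of differently numbered samples ran from -0.35 to 0.28. With 3 samples per group these values cannot show whether a number marks a pair, and the main fit used no pairs.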

Other observations

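The genes next to the 7 measured genes on their chromosomes numbered 14, of which 11 had a probe set, and 0 of these passed (limma, adjusted p below 0.05). Their differences ran from -0.31 (Ccdc71l, beside Nampt) to 0.24 (Dnajc12, beside Sirt1). Genotypes did not overlap for 1 of the 11, which was lower, against 17.0% over the array, of which 6.04% were lower. This gene was Herc4, a ubiquitin ligase gene beside Sirt1, which read 9.0, 8.97 and 9.06 in HDAC9-/- samples, against 9.24, 9.18 and 9.17 in wild type samples. Its difference was -0.18 (SE 0.065, limma, adjusted p = 0.541).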
